A study of Mus musculus with 2 samples.

Results

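Adam23, Opcml, Lsamp, Nlgn1, Dner and Frmpd4 are 6 genes best known from the nervous system that were read in stromal cells of the mouse gut. They were taken by name, selected on their level and share of positive cells by type and tissue and on their co-detection in these 2 libraries, from 18545 genes listed in either library, of which 16098 were listed in both. All 6 were listed in both. Because the choice used these counts, the levels, the colon to small intestine ratios and the co-detection among the 6 are descriptions below and carry no test. The tissues of healthy, untreated mice that were compared are the colon and the small intestine, with 1 droplet library of each. A unique molecular identifier (UMI) stands for 1 captured transcript, a cell is positive for a gene with at least 1 UMI, and levels are UMIs of a gene per 1000000 UMIs of all cells of a type (CPM). Live cells negative for EpCAM and CD45 were sorted after digestion with collagenase XI and dispase II, which lasted 60 minutes for colon tissue and 45 minutes for small intestinal tissue, and about 16000 cells were loaded per library. Strain, sex, age and the number of animals pooled in a library are not given in the sources used here. With 1 library per tissue, every difference between the tissues is a difference between 2 libraries, and each interval printed is a 95% interval for counting error only.

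ADAM23 is a membrane protein of the ADAM family without protease activity that binds secreted LGI proteins. OPCML and LSAMP belong to the IgLON family of GPI-anchored immunoglobulin cell adhesion molecules, and neuroligin 1 (Nlgn1) is a postsynaptic adhesion protein that binds neurexins on the partner cell. DNER is a neuronal transmembrane protein with EGF-like repeats that has been described as a Notch ligand. FRMPD4 (Preso) is an intracellular scaffold with FERM and PDZ domains that binds PSD-95 and Homer at the postsynapse, so it is a scaffold and not itself an adhesion molecule. Gut fibroblasts lie among enteric nerve fibres and glia, and they are divided here, by the authors' annotation, into CD81- fibroblasts (CD81- FBs), CD81+ trophocytes and PDGFRA-high subepithelial myofibroblasts (SEMFs).

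In the GRCm38 annotation all 6 are protein-coding genes with long spans: 150 kb for Adam23, 326 kb for Dner, 906 kb for Nlgn1, 1106 kb for Frmpd4, 1135 kb for Opcml and 2197 kb for Lsamp. The median span of the 15886 genes matched to the annotation is 23.1 kb, and the spans of the 6 exceed those of 91.6% to 99.97% of them. Adam23 (63445891 to 63596276, plus strand) and Dner (84369839 to 84696221, minus strand) are on chromosome 1, Opcml is on chromosome 9 (27790775 to 28925410, plus), Lsamp on chromosome 16 (39984361 to 42181679, plus), Nlgn1 on chromosome 3 (25426215 to 26332460, minus) and Frmpd4 on chromosome X (167471309 to 168577231, minus). The promoter table holds 1 start each for Adam23, Opcml and Dner, 2 each for Lsamp and Nlgn1 and 3 for Frmpd4. The 250 bases before the start are shown for the 3 genes with a single entry, because the table lists no other start for them. The annotation has 12 transcripts of Adam23, 9 of Opcml and 4 of Dner, and its first base of Opcml lies before the window shown. They are reference sequence from RefSeq (GRCm38.p6), 5′ to 3′ on the gene's strand, at chr1:63445641-63445890 (Adam23), chr9:27791049-27791298 (Opcml) and chr1:84696222-84696471 (Dner). Capitals mark CG dinucleotides and the CCAAT motif on either strand (CCAAT or ATTGG).
Adam23: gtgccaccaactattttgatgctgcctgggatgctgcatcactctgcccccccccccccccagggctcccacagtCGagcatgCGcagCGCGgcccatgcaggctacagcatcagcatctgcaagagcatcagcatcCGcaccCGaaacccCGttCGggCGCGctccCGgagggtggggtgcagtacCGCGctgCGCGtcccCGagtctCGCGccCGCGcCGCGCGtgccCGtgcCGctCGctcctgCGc
Opcml: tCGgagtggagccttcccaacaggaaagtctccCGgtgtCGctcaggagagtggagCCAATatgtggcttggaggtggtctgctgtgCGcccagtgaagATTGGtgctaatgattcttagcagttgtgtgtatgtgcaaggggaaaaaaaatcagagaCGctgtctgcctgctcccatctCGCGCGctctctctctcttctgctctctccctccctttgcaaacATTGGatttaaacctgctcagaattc
Dner: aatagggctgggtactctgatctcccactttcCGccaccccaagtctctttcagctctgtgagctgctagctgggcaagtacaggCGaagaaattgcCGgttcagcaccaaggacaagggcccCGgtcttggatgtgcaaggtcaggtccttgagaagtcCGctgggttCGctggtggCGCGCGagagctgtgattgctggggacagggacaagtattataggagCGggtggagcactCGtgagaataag
The Adam23 window holds 27 CG dinucleotides, more than 91.4% of the 32851 promoter windows of this length, where the median is 6. Dner has 11 and Opcml 8. Opcml has 3 matches to CCAAT, a motif found on either strand in 33.8% of all windows, while Adam23 and Dner have 0. None of these 3 windows holds TATAAA (found in 12.4% of windows), GGGCGG (32.7%) or CAGCTG (13.0%) on either strand. A match is a match of letters only, and counts from the 3′ end of transcripts do not show which start was used.

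The colon library held 6018 cells and 40684070 UMIs, and the small intestine library 9359 cells and 58134526 UMIs. Fibroblasts made up 5611 colon cells (median 6707 UMIs) and 5845 small intestine cells (median 7018 UMIs). The annotated types were checked against their markers: the lists for trophocytes, SEMFs, lymphatic and blood endothelium and smooth muscle summed highest in the cells so named in both libraries. Some single genes did not follow their list. Cd81 and Ly6a of the trophocyte list and Dll1 of the SEMF list were highest in blood endothelial cells in both libraries. Kdr of the blood endothelium list was highest in lymphatic endothelial cells in the small intestine. A mixed label was the smooth muscle label (SMCs) of the small intestine. Its CD81- FB markers summed to 9410 CPM, against 8880 CPM in the CD81- FBs themselves, beside 14808 CPM of smooth muscle markers. Adamdec1 alone gave 9211 CPM in the SMCs and 8191 CPM in the CD81- FBs. Edil3, Col15a1 and Cxcl13 were lower in the SMCs (53.8, 121 and 21.7 CPM) than in the CD81- FBs (268, 314 and 106 CPM). In addition, 21 cell barcodes occurred in both libraries, 19 of them in colon fibroblasts. Leaving these cells out left the log2 ratios of the 6 genes between -1.84 and 5.73, against -1.83 and 5.71 with them.

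The name under which the genes were grouped, neural adhesion genes of colon fibroblasts, held by level for 3 of the 6. Adam23, Frmpd4 and Opcml were higher in colon than in small intestine fibroblasts, Dner was near equal, and Lsamp and Nlgn1 were higher in the small intestine. The library-wide background was that 6.88% of 13307 genes with at least 100 UMIs had a log2 ratio over 1 and 9.47% one under -1. The choice of the genes used these ratios, so the members' count of 3 and 2 is not read against that share. The median log2 ratio was 1.76 over the 6 genes, which ran from -1.83 (Nlgn1) to 5.71 (Adam23). It was -0.17 over all genes, and for the same reason the 2 medians are not compared.

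Adam23 stood at 188 CPM in colon fibroblasts and 3.60 CPM in small intestine fibroblasts, a log2 ratio of 5.71 (5.48 to 5.95). By label it was 277 CPM in colon CD81- FBs, 19.5 CPM in trophocytes and 35.8 CPM in SEMFs, against 3.37, 5.39 and 0.153 CPM in the same 3 small intestine labels. In the colon it was thus mainly a transcript of CD81- FBs, 68.9% of which had at least 1 UMI. Colon SMCs came next, with 105 CPM (83.3 to 130) and a UMI in 40.0% of 125 cells, while the small intestine SMCs held 1 Adam23 UMI in 468 cells. Those colon SMCs also carried 1397 CPM of CD81- FB markers, against 7450 CPM in the CD81- FBs, and the part of fibroblast RNA in the Adam23 level of SMCs was not tested. Colon blood endothelial cells (BECs, 37.1 CPM) and SEMFs had overlapping intervals, as had trophocytes and lymphatic endothelial cells (LECs, 12.2 CPM). Small intestine BECs had 0 Adam23 UMIs, which allows up to 1.37 CPM. The colon BEC level rested on 10 UMIs, and the lower limit of its log2 ratio was 4.19. Colon BECs carried 4049 CPM of fibroblast markers, against 391 CPM in small intestine BECs, and their part in this value was not tested.

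Opcml was the 1 gene of the 6 that was higher in the colon in each of the 3 fibroblast labels by a log2 ratio over 2. It stood at 186 CPM in colon CD81- FBs, 234 CPM in trophocytes and 112 CPM in SEMFs. The small intestine values were 14.2, 21.4 and 23.6 CPM. The log2 ratios were 3.71 (3.53 to 3.88), 3.45 (3.28 to 3.63) and 2.24 (1.99 to 2.50). Opcml therefore differed from Adam23 in being spread over all colon fibroblast labels, with its highest level in trophocytes. It had UMIs in 39.8% of colon CD81- FBs, 45.9% of trophocytes and 32.7% of SEMFs, against 4.04%, 5.54% and 6.13% in the small intestine. Outside the fibroblasts it was 48.2 CPM in colon BECs, 42.7 CPM in SMCs and 20.6 CPM in LECs, and these 3 had overlapping intervals from each to the next.

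Lsamp, the other IgLON of the 6, had the opposite direction in CD81- FBs and trophocytes. It was 158 CPM in colon CD81- FBs and 214 CPM in small intestine CD81- FBs, a log2 ratio of -0.44 (-0.50 to -0.38). Trophocytes held 136 CPM in the colon library but 510 CPM in the other, which gives a log2 ratio of -1.91 (-2.01 to -1.80). Colon SEMFs held 21.5 CPM and small intestine SEMFs 3.22 CPM, but the colon level had an interval overlapping that of colon LECs (18.8 CPM), so no direction is read from it. The 160 colon UMIs lay in 55 of 1105 SEMFs. The highest Lsamp level of any label was in small intestine SMCs, 939 CPM (904 to 976) in 468 cells, against 136 CPM in colon SMCs. That small intestine label is the one with Adamdec1, but not the other CD81- FB markers given above, at the level of CD81- FBs. Its Lsamp level was above that of both CD81- FBs and trophocytes there. Which of its cells held the Lsamp was not tested, so it is not assigned to muscle cells from the label alone.

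Nlgn1 was lower in the colon in all 3 fibroblast labels. It was 142 CPM against 386 CPM in CD81- FBs (log2 ratio -1.44, -1.50 to -1.38) and 67.8 CPM against 495 CPM in trophocytes (log2 ratio -2.87, -3.01 to -2.73). In SEMFs it was low in both tissues, at 2.02 and 10.6 CPM. Nlgn1 was also found in endothelium: small intestine LECs held 117 CPM, with a UMI in 15.9% of 2498 cells, against 18.8 CPM in colon LECs. The summed fibroblast markers in small intestine LECs were 789 CPM, against 25057 CPM in CD81- FBs, and Nlgn1 in these LECs stood at 30.2% of its CD81- FB level. The 12.9 CPM of Nlgn1 in colon SMCs came from 10 UMIs of 1 cell.

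Dner looked level between the tissues when fibroblasts were pooled, with a colon level of 29.6 CPM and a small intestine level of 25.3 CPM (log2 ratio 0.23, 0.10 to 0.35). The labels moved apart beneath that pooled value. CD81- FBs held 35.2 CPM in the colon library and 6.30 CPM in the other, or 2.48 (2.21 to 2.76) on the log2 scale. Trophocytes held 41.5 and 61.6 CPM, or -0.57 (-0.77 to -0.37). In the small intestine Dner was thus mostly a trophocyte transcript, detected in 21.3% of trophocytes and 3.08% of CD81- FBs. In the colon it was found in both, in 15.4% of trophocytes and 436 of 3631 CD81- FBs. SEMFs, LECs and SMCs had 1 to 9 UMIs of Dner each in either library, so no fold is given for them.

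Frmpd4 had the most extreme ratio of the 6 in CD81- FBs. It was 270 CPM in colon CD81- FBs and 1.64 CPM in small intestine CD81- FBs, a log2 ratio of 7.36 (6.87 to 7.90). The small intestine level rested on 33 UMIs, and its interval (1.13 to 2.30 CPM) overlapped that of LECs there (0.196 to 1.17 CPM). The ratio can therefore be read only as a lower limit. Trophocytes held 16.0 CPM and 17.6 CPM in turn, for a log2 ratio of -0.13 whose interval ran from -0.48 to 0.20. The gene was therefore found in 46.5% of colon CD81- FBs but in 15 of 2823 small intestine CD81- FBs. The 2 trophocyte levels do not stand on the same ground. The colon trophocyte level was below the 27.2 CPM of Frmpd4 in colon LECs but above the 3.23 CPM (2.07 to 4.80) in colon SEMFs. How much of it was background was not tested. Small intestine LECs held 0.535 CPM, so the ratio of -0.13 does not show that trophocytes were alike.

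**Figure D1:**
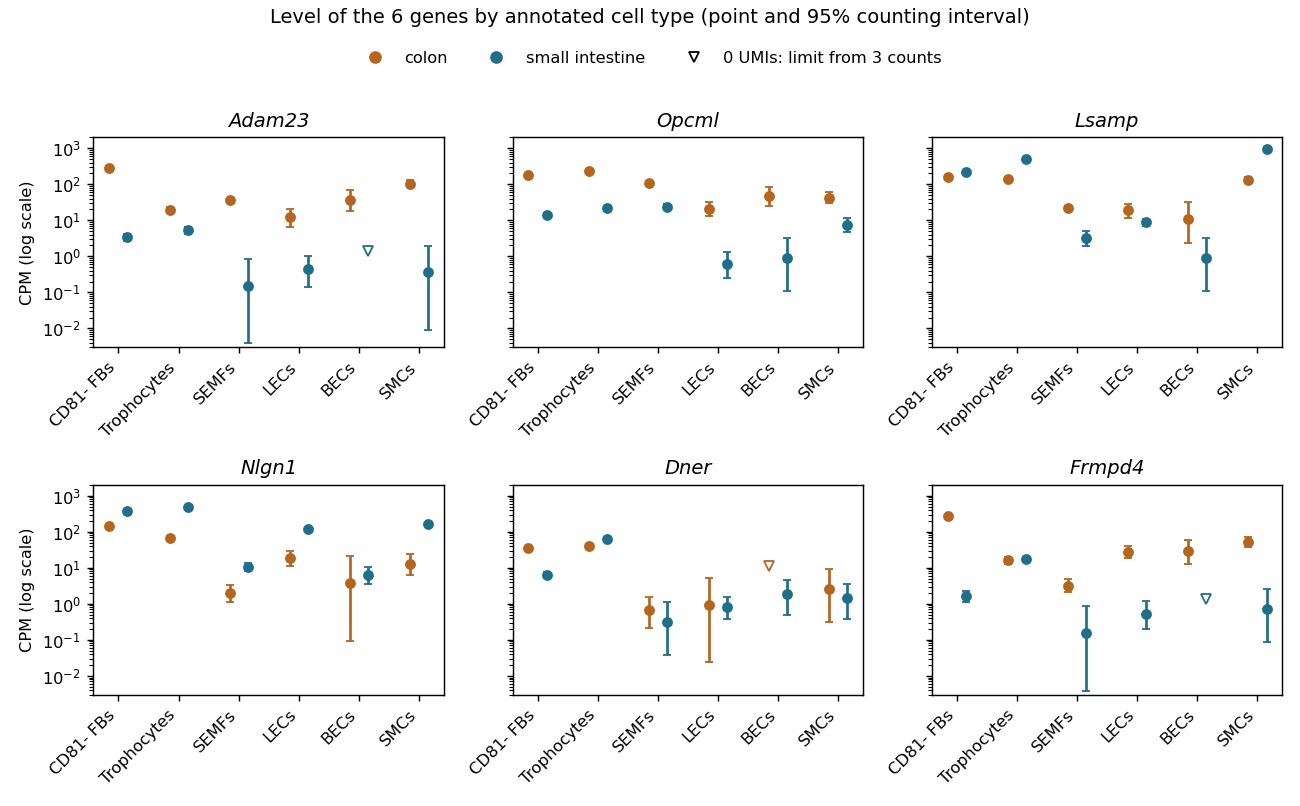
Level of each gene in CPM (log axis) in the 6 annotated types, with colon in brown and small intestine in blue; bars are 95% Poisson intervals and open triangles mark 0 UMIs at the limit set by 3 counts. Adam23 and Frmpd4 stand at 277 and 270 CPM in colon CD81- FBs and under 20 CPM in every small intestine type, while Lsamp and Nlgn1 are higher in the small intestine in CD81- FBs, trophocytes and SMCs.

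Within the labels the background in CD81- FBs was 6.46% of genes over a log2 ratio of 1 and 10.4% under -1. It was 4.23% and 8.24% in trophocytes, and 5.36% and 15.1% in SEMFs. Over 1 were 4 of the 6 genes in CD81- FBs (Adam23, Opcml, Dner and Frmpd4) and 2 in trophocytes (Adam23 and Opcml). The Adam23 level of colon trophocytes had an interval overlapping that of colon LECs. Of the 3 that reached 100 UMIs in SEMFs, all were over 1 (Adam23, Opcml and Lsamp, the last at the level of colon LECs). These counts describe the choice of genes and are given beside the shares only to show the scale. Adam23 in small intestine SEMFs was a single UMI, so its log2 ratio there had an interval from 5.38 to 13.2.

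**Figure D2:**
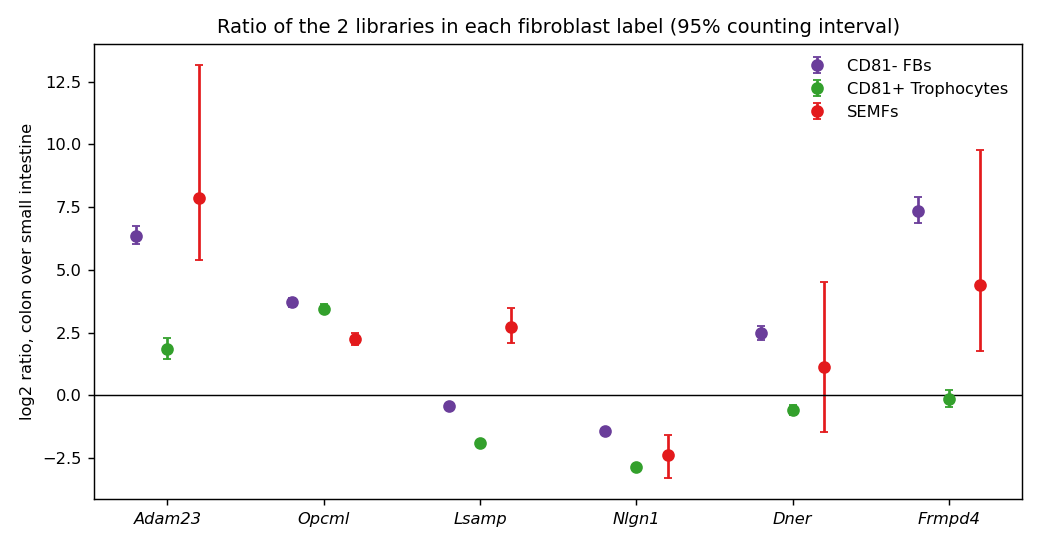
Log2 ratio of colon to small intestine CPM for each gene in CD81- FBs (purple), trophocytes (green) and SEMFs (red), with 95% conditional binomial intervals. Opcml lies above 2 in all 3 labels, Nlgn1 lies below -1 in all 3, and Frmpd4 runs from -0.13 in trophocytes to 7.36 in CD81- FBs.

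The contrast between fibroblast labels turned round between the tissues for 4 of the 6 genes. In the colon Frmpd4 was higher in CD81- FBs than in trophocytes by a log2 ratio of 4.07 (3.79 to 4.37), and in the small intestine it was lower by a log2 ratio of -3.42 (-3.99 to -2.90). The colon trophocyte level lay below that of colon LECs and above that of colon SEMFs. Its background part was not tested, so the colon value may be only a lower limit. The small intestine CD81- FB level had an interval overlapping that of LECs there. The value of -3.42 thus sets only a lower limit on the size of that difference. Adam23 went from 3.83 (3.58 to 4.10) in the colon to -0.68 (-1.16 to -0.19) in the small intestine. Its colon trophocyte level had an interval overlapping that of colon LECs, so 3.83 too can be read only as a lower limit. Nlgn1 went from 1.07 to -0.36 and Lsamp from 0.21 to -1.25, again with intervals on opposite sides of 0. Dner and Opcml were higher in trophocytes in both tissues: Dner had log2 ratios of -0.24 (-0.44 to -0.03) and -3.29 (-3.57 to -3.02), and Opcml of -0.33 and -0.59. In all 6 genes, then, CD81- FBs stood higher relative to trophocytes in the colon than in the small intestine, for Opcml with overlapping intervals. The share of all genes over a log2 ratio of 1 toward CD81- FBs was 8.41% in the colon and 6.83% in the small intestine, and 4.69% and 4.38% were under -1. Over 1 in the colon were 3 of the 6 genes (Adam23, Frmpd4 and Nlgn1), and under -1 in the small intestine also 3 (Frmpd4, Dner and Lsamp). Each value comes from 1 library, and the difference between the tissues was not tested. The share of all genes that turn round or shift in this way was not computed. The counts of 4 and of all 6 are therefore not read as particular to these genes. SEMFs were lowest of the 3 labels for Lsamp, Nlgn1, Dner and Frmpd4 in both tissues, and Opcml was lower in SEMFs than in CD81- FBs in the colon (log2 ratio 0.74) but higher in the small intestine (-0.73).

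A share of positive cells moves with depth and with free RNA. Shares were therefore also taken at a common depth, and levels in colon LECs are given beside them. Free RNA itself was not measured. Colon LECs (median 4545 UMIs), which are not fibroblasts, had UMIs of Nlgn1 in 6.91% of cells, of Opcml and Frmpd4 in 6.45% each, of Adam23 in 4.61%, of Lsamp in 4.15% and of Dner in 0.461%. Set against their CPM in colon CD81- FBs, the LEC levels were 4.40% for Adam23, 10.1% for Frmpd4, 11.1% for Opcml, 11.9% for Lsamp, 13.2% for Nlgn1 and 2.67% for Dner. The 6 fibroblast markers summed to 1776 CPM in the same LECs and to 17003 CPM in CD81- FBs. Shares at or below those of LECs, or with an overlapping interval, were not told apart from background. That covers Frmpd4, Dner and Lsamp in colon SEMFs (1.81%, 0.452% and 4.98%) and Frmpd4 in colon trophocytes (6.74%, 5.17 to 8.61, against 3.57 to 10.6 in LECs). For Nlgn1, at 0.995% in colon SEMFs, LECs are no clean background, since small intestine LECs held it at the level given above. Nor need they be one for Frmpd4, which was 3.23 CPM (2.07 to 4.80) in colon SEMFs and 27.2 CPM (18.2 to 39.1) in colon LECs. With every cell thinned to 3000 UMIs and 168 of 3631 colon CD81- FBs left out as shallower, Adam23 was found in 49.5% of CD81- FBs, 5.75% of trophocytes, 8.30% of SEMFs, 22.9% of SMCs and 1.00% of LECs. Frmpd4 was then found in 34.9%, 3.43%, 0.472%, 11.0% and 4.0% of the same 5 types. The other shares in thinned colon CD81- FBs were 28.2% for Opcml, 26.0% for Lsamp, 22.3% for Nlgn1 and 7.02% for Dner.

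The 6 transcripts were unevenly spread among the cells of a label. The spread was not measured over all genes, so it is not read as particular to these 6. If the UMIs of Frmpd4 had been shared evenly over colon CD81- FBs in proportion to each cell's total, 81.3% of cells would have had one, against 46.5% observed. The corresponding shares were 69.5% against 39.8% for Opcml, 63.8% against 37.6% for Lsamp, 60.2% against 32.9% for Nlgn1 and 82.1% against 68.9% for Adam23, and for Dner 21.1% against the 436 cells given above. Adam23 was therefore the most evenly spread of the 6 on this measure. The 5% of CD81- FBs with the most UMIs of the gene held 20.7% of Adam23 UMIs, 35.9% of Frmpd4 UMIs and 42.4% of Nlgn1 UMIs, and a single cell held up to 68 Frmpd4 UMIs.

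Co-detection was measured as the number of colon fibroblasts with a UMI of both genes, over the number if the genes were independent among cells of the same label and the same of 10 strata of total UMIs. A ratio of 1 is what independence gives. Co-detection in these cells was among the values the genes were chosen on, so the ratios, the counts per cell and the shares of other genes beside them describe the 6 and test nothing. Nlgn1 and Frmpd4 met in 891 cells against 582 for independence, a ratio of 1.53 (1.43 to 1.64). Nlgn1 and Dner met in 275 cells against 179, a ratio of 1.54 (1.36 to 1.73). These were the 2 pairs of 15 at 1.5 or above. Among all 12844 other genes detected in at least 1% of colon fibroblasts, 0.522% reached 1.5 with Nlgn1, 0.35% with Frmpd4 and 1.59% with Dner. For the other members the shares were 0.257% with Lsamp, 0.101% with Adam23 and 0.0934% with Opcml.

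Frmpd4, Nlgn1, Lsamp and Dner were found together above 1.2 in each of their 6 pairs. Beside the pairs just given, Lsamp met Frmpd4 in 941 cells (ratio 1.39, 1.31 to 1.49) and Nlgn1 in 741 cells (1.38, 1.28 to 1.48), and Dner met Frmpd4 in 302 cells (1.38, 1.23 to 1.55). Lsamp and Dner gave 1.21 (1.07 to 1.36), which fell to 0.98 with cells thinned to 3000 UMIs. Opcml stood outside this group except with Dner. Its ratio was 0.96 with Adam23, 0.93 with Lsamp, 0.99 with Frmpd4 and 1.04 with Nlgn1, all with intervals that include 1. With Dner it was 1.21 (1.08 to 1.36), as high as Lsamp with Dner. Adam23 had small ratios, 1.12 (1.05 to 1.18) with Lsamp, 1.10 (1.04 to 1.16) with Frmpd4, 1.06 with Nlgn1 and 1.02 with Dner. For Adam23 and Frmpd4 the ratio was 1.51 when the labels and the depth were not held fixed, so most of that pair's co-detection lay between labels and depths and not within them. Within CD81- FBs alone, Nlgn1 with Frmpd4 gave 1.53 and Nlgn1 with Dner 1.58. Without the 5% of cells with the most UMIs, where doublets would be sought, both pairs gave 1.52 over all colon fibroblasts.

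**Figure D3:**
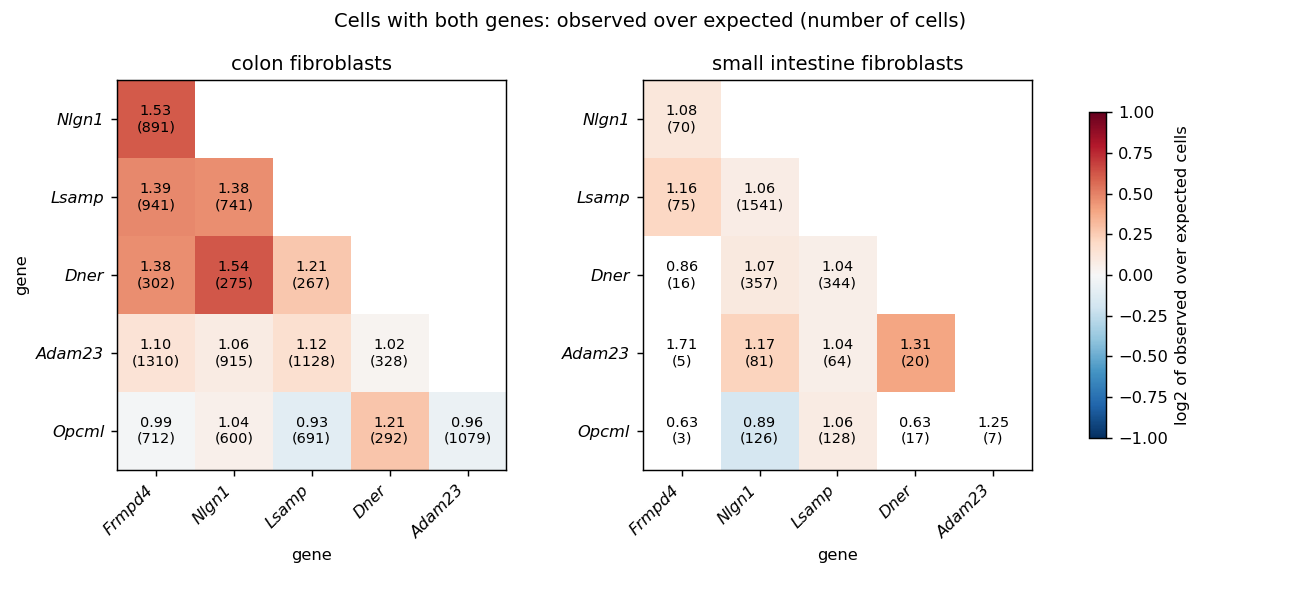
Observed over expected number of fibroblasts with UMIs of both genes for the 15 pairs, colon on the left and small intestine on the right, with the number of such cells in brackets; squares with fewer than 20 cells are left white. In the colon the pairs of Frmpd4, Nlgn1, Lsamp and Dner run from 1.21 to 1.54, and the pairs with Opcml or Adam23 from 0.93 to 1.21.

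In small intestine fibroblasts the same pairs were close to independence. Lsamp and Nlgn1, the most often shared pair there, met in 1541 cells against 1460, a ratio of 1.06 (1.00 to 1.11). Nlgn1 with Dner gave 1.07 (0.96 to 1.19) and Lsamp with Dner 1.04 (0.94 to 1.16). Pairs with Frmpd4 rested on few cells there, 70 with Nlgn1 (1.08, 0.85 to 1.37) and 75 with Lsamp (1.16, 0.91 to 1.45). The difference between the tissues in these ratios was not tested, and where a gene is found in most cells a ratio cannot rise far: for Lsamp and Nlgn1 the highest possible value was 1.57 in the small intestine and 2.59 in the colon.

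Counted per cell, 879 of 5611 colon fibroblasts (15.7%) had UMIs of at least 4 of the 6 genes, against 632 if the genes were independent within label and depth. All 6 were found in 40 cells against 9.12. Nearly all of these lay among CD81- FBs, where 846 cells had at least 4 genes against 614, and where 363 had none of the 6 against 172. In trophocytes of the colon 32 cells had at least 4 genes against 18.2. In the small intestine 37 fibroblasts had at least 4 against 34.8, and none had all 6.

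**Figure D4:**
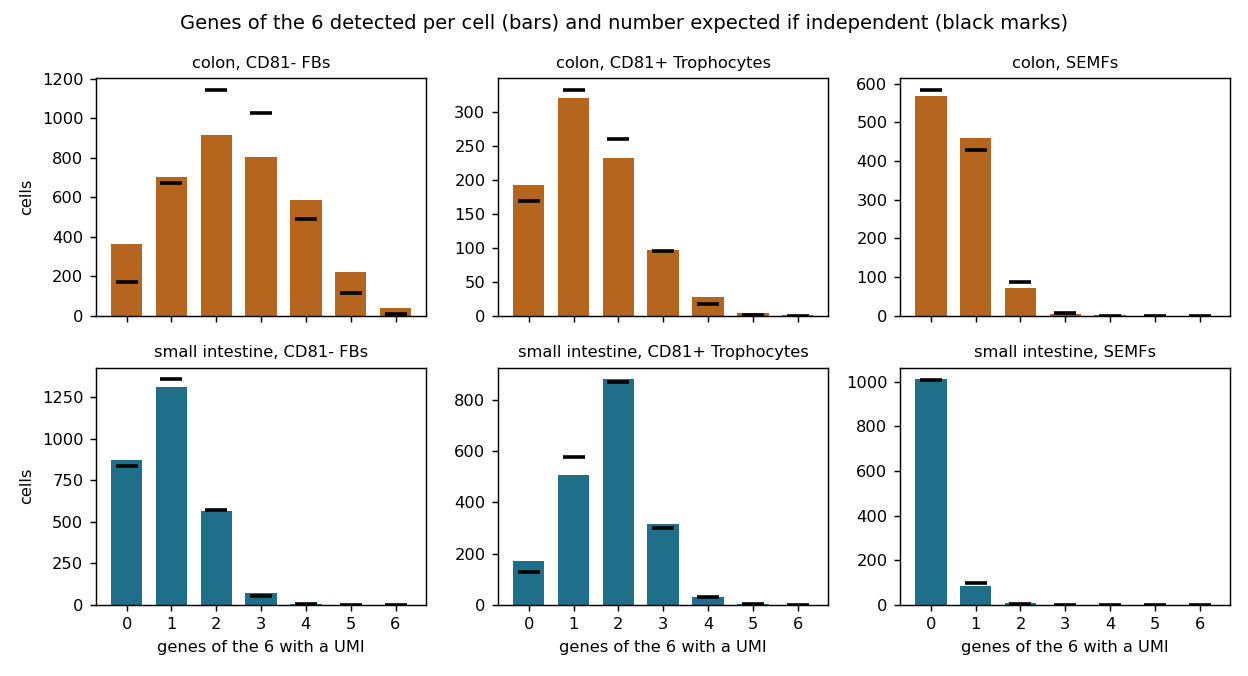
Number of fibroblasts (y axis) by how many of the 6 genes had a UMI (x axis), one panel per label and tissue; bars are observed counts and black marks the counts if genes were independent within 10 strata of total UMIs. In colon CD81- FBs the bars exceed the marks at 0, 1, 4, 5 and 6 genes, with 363 cells at 0 against 172, and fall short of them at 2 and 3 genes.

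Cells with and without each gene were compared in colon CD81- FBs thinned to 3000 UMIs, to see what else differed. Before thinning, median totals were 6795 to 6946 UMIs in the positive cells of the 6 genes and 6740 to 6765 in the negative ones. The neuron markers, 6 of 9 of which were listed in the colon, summed to between 9.84 CPM (Nlgn1) and 16.8 CPM (Dner) in positive cells and between 9.79 and 12.5 CPM in negative cells. The enteric glia markers, 5 of 6 listed, summed to 2.89 to 4.98 CPM and 4.22 to 5.30 CPM. Across colon types the neuron sum ran from 0.939 CPM in LECs to 30.9 CPM in trophocytes, and the glia sum from 2.98 CPM in trophocytes to 11.1 CPM in BECs. The glial regulators Sox10 and Foxd3 were at 0 to 0.269 CPM and 0 to 0.471 CPM in the 3 colon fibroblast labels. Without the fibroblasts that had a UMI of any neuron or glia marker, the log2 ratios were 5.65 for Adam23, 4.56 for Frmpd4 and 3.22 for Opcml, and the ratio of Nlgn1 with Frmpd4 was still 1.53. SEMF markers were lower in the cells positive for each of the 6 genes, for example 313 against 445 CPM for Frmpd4 and 299 against 435 CPM for Lsamp. Pericyte markers stood at 101 CPM in Lsamp-positive and 51.2 CPM in Lsamp-negative cells, and at 35.9 against 75.7 CPM for Opcml. Trophocyte markers were higher in the cells positive for each gene but Opcml, for example 1319 against 1000.4 CPM for Lsamp and 1206 against 1018 CPM for Frmpd4, and for Opcml they were 907 against 1155 CPM. Smooth muscle markers were lower in the positive cells of all 6, for example 88.4 against 154 CPM for Nlgn1. No other genes were split in this way, so these directions are not read as particular to the 6. The part of these marker differences in the results was not tested.

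The colon library held cells with Xist UMIs and cells with UMIs of Y-linked genes (4 such genes listed), and the 6 genes differed between these cells. Among colon CD81- FBs, 1615 cells had Xist and no Y-linked UMI (median 7110 UMIs) and 1040 had a Y-linked and no Xist UMI (median 6730 UMIs). Frmpd4, which is X-linked, was 180 CPM in the Xist cells and 372 CPM in the Y-linked cells, a log2 ratio of 1.04 (0.96 to 1.13). Dner was 20.4 CPM and 52.8 CPM, a log2 ratio of 1.37 (1.14 to 1.61). A log2 ratio beyond 1 in either direction was found for 0.709% of 10430 genes in this comparison, and Frmpd4 and Dner were both among them. Nlgn1 was also higher in the Y-linked cells, 174 against 120 CPM (0.53, 0.42 to 0.64), and Lsamp was lower, 121 against 191 CPM (-0.66, -0.77 to -0.55), where 5.89% of genes passed 0.5 in either direction. Adam23 (291 and 267 CPM, -0.12) and Opcml (179 and 201 CPM, 0.17) differed less. The pattern was kept only in part in the other labels. In trophocytes Nlgn1 was 50.1 CPM in Xist cells and 90.8 CPM in Y-linked cells (0.86, 0.54 to 1.17), the same direction. Dner (0.63, 0.21 to 1.06), Lsamp (-0.42, -0.65 to -0.19) and Adam23 (-0.69, -1.36 to -0.06) also kept their direction there. Frmpd4 gave -0.07 (-0.82 to 0.67). Opcml turned, at 299 CPM in Xist cells and 168 CPM in Y-linked cells (-0.83, -1.01 to -0.65). Lsamp turned in SEMFs, at 14.2 and 43.1 CPM (1.60, 1.10 to 2.12). Of the 2 libraries, the colon alone lists Xist, so the split was made there. The libraries may thus differ in the sex of their cells, and tissue and sex cannot be told apart in the ratios between them. How many animals stand behind each set of cells is not given, so sex and animal cannot be told apart. Within the Xist cells of all colon fibroblasts the ratio of Nlgn1 with Frmpd4 was 1.59 and that of Nlgn1 with Dner 1.49, and within the Y-linked cells 1.48 and 1.5. With colon cells of the 2 kinds taken in turn, Dner against the small intestine changed direction, at -0.48 for Xist cells and 0.70 for Y-linked cells.

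**Figure D5:**
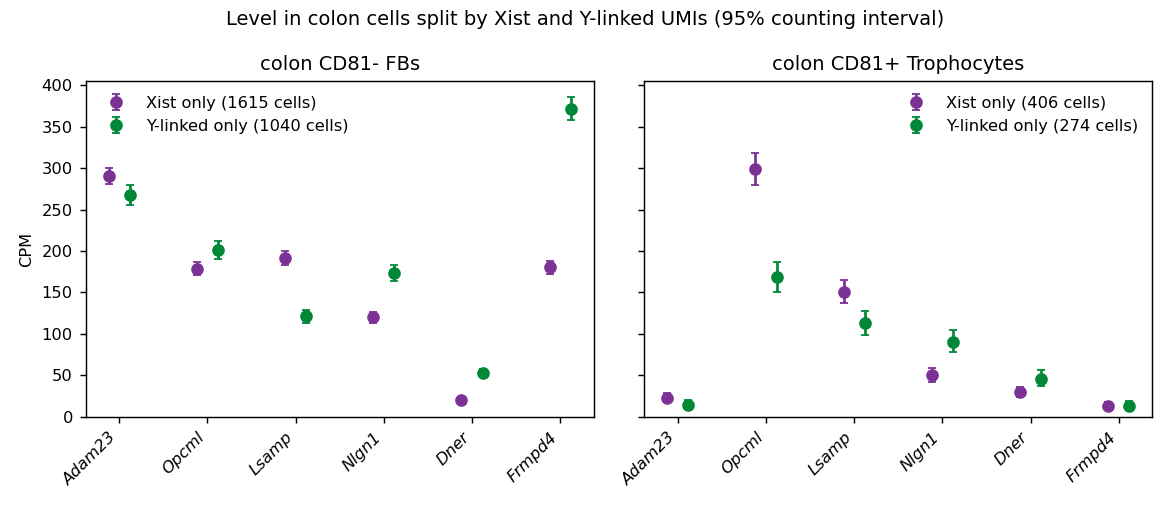
Level of each gene in CPM in colon CD81- FBs (left) and colon trophocytes (right), for cells with Xist UMIs only (purple) and cells with Y-linked UMIs only (green), with 95% Poisson intervals. Frmpd4 in CD81- FBs stands at 180 against 372 CPM and Opcml in trophocytes at 299 against 168 CPM.

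The partners of these proteins were read from 8 lists of 89 genes, of which 58 were listed in both libraries with at least 100 UMIs in fibroblasts. Of these, 8 had a log2 ratio over 1 (colon over small intestine) and 18 one under -1, beside 6.88% and 9.47% of all genes, with a median of -0.20. The minimum of 100 UMIs shapes these counts: of the 18 listed in both but below it, 11 had a ratio over 1 and 1 under -1. Of ADAM23's ligands and relatives, the 4 with at least 100 UMIs did not share its direction: none was over 1 and 2 were under -1. Lgi1, with 21 UMIs in the colon and 11 in the small intestine, had a ratio of 1.05 (-0.07 to 2.25). Lgi2, a secreted LGI protein, was 13.9 CPM in colon and 115 CPM in small intestine fibroblasts (log2 ratio -3.05), and Lgi4, an LGI protein of peripheral glia, was 10.3 and 11.2 CPM (-0.13). Both were highest in trophocytes in the 2 tissues. Of the other IgLONs, Ntm (6.65 and 2.45 CPM, log2 ratio 1.44) and Iglon5 (2.23 and 0.791 CPM, 1.5) were over 1, and Negr1 was 360 and 460 CPM (-0.35).

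Among neurexins and neuroligins, none of 4 was over 1 and 2 were under -1, while Nrxn3, short of 100 UMIs with 82 in the colon and 16 in the small intestine, had a ratio of 2.47 (1.69 to 3.35). Nlgn2, the neuroligin of inhibitory synapses, was 19.7 and 20.2 CPM (-0.03). Of 17 other synaptic organizers with at least 100 UMIs, 2 were over 1 and 7 under -1. Of the 4 below that minimum, 1 was over 1 and 1 under -1. Tenm3, a teneurin, was 756 and 1268 CPM (-0.75) and Adgrl3, a latrophilin that binds teneurins and FLRTs, was 236 and 709 CPM (-1.59). Adgrl2 had the lowest ratio, 20.5 and 169 CPM (-3.04), and Flrt1 the highest, 6.86 and 0.599 CPM (3.52).

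Of 12 scaffold genes of the kind FRMPD4 binds or resembles, none was over 1 and 3 were under -1. Dlgap4 was 99.9 and 121 CPM (-0.28), Dlg1 94.6 and 220 CPM (-1.21), Dlgap1 46.9 and 24.1 CPM (0.96) and Dlg2 13.6 and 37.5 CPM (-1.46). The 3 listed scaffold genes under 100 UMIs were all over 1: Shank2 at 2.40 (1.35 to 3.62), Dlgap2 at 2.34 (1.04 to 3.9) and Dlgap3 at 2.44 (0.86 to 4.45). These, Nrxn3, Lgi1 and the genes under 100 UMIs named below were named after their values were seen. None of the 4 Notch genes with 100 UMIs passed 1 in either direction: the receptors Notch2 (38.9 and 51.6 CPM, -0.41) and Notch1 (11.7 and 11.0 CPM, 0.08) and the ligand Dll1 (8.67 and 5.75 CPM, 0.59) are the named ones. Contactins and L1 relatives had 4 of 9 over 1 and 2 under -1. The 3 under 100 UMIs were all over 1: Cntn3 at 2.88 (1.96 to 3.95), Cntn5 at 2.06 (0.83 to 3.51) and L1cam at 1.23 (0.19 to 2.35). Cntn1, a GPI-anchored contactin, was 10.4 CPM in colon and 0.264 CPM in small intestine fibroblasts (5.31) and was highest in CD81- FBs in the colon, as Adam23 and Frmpd4 were. Cntn6 was 15.2 and 3.07 CPM (2.30), Cntnap5a 17.8 and 7.07 CPM (1.33) and Nfasc 0.727 and 3.38 CPM (-2.22). Of 5 NCAM and SynCAM genes with at least 100 UMIs, none was over 1 and 2 were under -1. Ncam1 was at 431 and 584 CPM (-0.44), Cadm3 at 39.7 and 27.9 CPM (0.51) and Ncam2 at 2.36 and 19.2 CPM (-3.02). Cadm2, under 100 UMIs, had a ratio of 1.81 (1.00 to 2.69).

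The genes most like each member were found in 2 ways. Over the 12 sums of 6 types in 2 libraries, Pearson's r of log2(CPM + 1) was highest for Adam23 with Isl1 (0.94), a LIM homeobox transcription factor with 51.2 CPM in colon and 0.893 CPM in small intestine CD81- FBs, then Gm14164 (0.93) and Use1 (0.92). For Frmpd4 the gene most alike of 13949 was Adam23 (0.91), followed by Hapln1 (0.89), a hyaluronan link protein, and Ppp1r1a (0.87). For Dner it was Syndig1 (0.94), a synaptic membrane protein, then 4930590L20Rik (0.92) and AW551984 (0.91), and for Nlgn1 it was Dapk1 (0.97), Gm35290 (0.91) and Foxp2 (0.91). Pkdcc (0.96) and Aff2 (0.94) were among the 3 genes most like Lsamp, and Opcml was most like Rnh1 (0.96), Uap1l1 (0.95) and Dvl2 (0.95). The sums share 2 libraries and differ in depth, and these values are descriptions.

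Within colon fibroblasts the genes with the highest co-detection ratios, of 11548 detected in at least 2% of cells, overlapped between 5 of the members. Kcnb2, a voltage-gated potassium channel, was among the 5 highest for Nlgn1 (1.91), Dner (2.29), Lsamp (1.71) and Frmpd4 (1.61). Nkain3 was among them for Nlgn1 (1.90) and Lsamp (1.65). Nlgn1 was also found with Cnksr2 (1.87), Pcdh11x (1.80) and the synaptic organizer Lrrtm3 (1.77), Lsamp with Shisa3 (1.78), the ephrin receptor Epha5 (1.73) and Ccbe1 (1.70), and Frmpd4 with the axon guidance factor Sema3a (1.63), Serpina3m (1.61), Sort1 (1.60) and Plcxd3 (1.60). Dner and Opcml shared Sfrp2, a secreted frizzled-related protein, at 2.48 (142 cells against 57.2) and 1.63 (314 against 192). Dner's others were Bche (2.37), Cacna2d3 (2.21) and Myo16 (2.17). Opcml's others were Rbm47 (1.70), Cntnap4 (1.66), Stmn2 (1.56), a neuronal tubulin-binding protein that was 182 CPM in colon CD81- FBs, and Aldh3a1 (1.51). Adam23's were Col6a4 (1.71), Brinp3 (1.51), Insc (1.49), Ptprr (1.43) and Glp2r (1.41), none of which was among the 5 of another member. Ratios this high are found for few genes, as the shares above show, and the 5 highest of many are by construction the upper end.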

How the data were processed

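Single-cell RNA was measured with the 10x 3′ v3.1 kit in 1 colon and 1 small intestine library. The authors deposited a UMI count table per library, and natural log (ln) values that equal ln(1 + 10000 × count / cell total) in every cell tested. The submitters' processing notes name Cell Ranger 7.1.0, Seurat 4 and mm10. Whether intronic reads were counted, and how doublets were treated, is not given in the sources used here. Cell types are the authors' deposited annotation. SEMF, BEC and pericyte sublabels were pooled, and types under 50 cells were left out of comparisons. CPM is a gene's UMIs per 1000000 UMIs of the type. Intervals are exact Poisson, Clopper-Pearson for shares and conditional binomial for ratios, at 95%, and a count of 0 is bounded by 3 counts. PCR copies are collapsed by UMIs, and the intervals cover counting error only. Scripts ran in Python 3.11.15 with numpy 2.4.6, scipy 1.17.1 and pandas 2.3.3, and were tested on simulated data. Symbols matched GENCODE for 98.7% of colon and 98.4% of small intestine genes.

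The 6 genes, partner lists and markers were chosen with earlier results of these data known. Named beyond the 6 are, per partner list, the 2 genes highest in colon fibroblasts and the extreme ratio in each direction (at least 100 UMIs), and per member the 3 genes most alike over 12 sums and the 5 highest in co-detection (at least 2% of cells). Some genes that this rule names are not reported here. The 2 tissues were compared by pooled sums per type, with no p-values because each tissue has 1 library.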

Additional observations from a re-analysis of the deposited data

Results flagged for a closer look

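The contrast of CD81- FBs with trophocytes pointed in opposite directions in the 2 tissues for 4 genes. The colon log2 ratio minus the small intestine one was 7.50 for Frmpd4, 4.51 for Adam23, 1.46 for Lsamp and 1.43 for Nlgn1. The Frmpd4 and Adam23 values can be read only as lower limits. For Adam23 the colon trophocyte level had an interval overlapping that of colon LECs. For Frmpd4 the small intestine CD81- FB level had an interval overlapping that of LECs there. The background part of its colon trophocyte level was not tested. Against SEMFs the same held for Opcml, with a difference of 1.47 (0.74 in the colon and -0.73 in the small intestine). Each tissue is 1 library, and the differences were not tested. The share of all genes with such a turn was not computed.

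Among cells outside the 6 compared types, the 8 colon cells labelled as pericytes held 6 Lsamp UMIs in 2 cells, or 173 CPM (63.5 to 377). A single cell held 5 of these UMIs. The interval includes the 86.5 CPM that 3 counts allow, so no level is read from it.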

How the results depend on the processing

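Of 60 recomputed log2 ratios of colon to small intestine fibroblasts, 40 stayed within the counting interval, 19 left it with the same sign and 1 reversed, Dner at -0.48 with colon cells that had Xist UMIs only. The count of genes over 1 was 3 in each alternative except the difference of mean log values, where it was 0, and the count under -1 was 2 except there (0) and with Xist cells only (1). That setting averages logs in each cell and is not on the scale of a ratio of sums: Adam23 gave 0.99. The share of all genes over 1 was 10.5% with at least 1 UMI in each library. CD81- FBs had the highest share of positive colon cells for 3 genes, and for 3 to 4 at the thinned depths and with a minimum of 2 UMIs. The 2 pairs with co-detection of at least 1.5 became 6 without strata, 5 with strata of UMIs alone or at least 2 UMIs, and 1 in cells with only Y-linked or only Xist UMIs. Of 165 pair ratios 135 stayed within their interval, and Lsamp with Dner reversed to 0.98 at 3000 UMIs. The exclusion of barcodes found in both libraries was chosen after seeing the data. Leaving out a replicate was not possible with 1 library per tissue. No paired analysis was possible because each tissue has a single library.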
